A study of Homo sapiens with 2 samples.

Results

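The miR-23/27/24 miRNAs are made from a pair of paralogous gene clusters, and 5 mature miRNAs of these clusters were examined in small extracellular vesicles (sEVs), the nanometre-sized membrane particles that cells release. They were taken by name, as hsa-miR-23a-3p, hsa-miR-23b-3p, hsa-miR-27a-3p, hsa-miR-27b-3p and hsa-miR-24-3p, and all 5 were found among the 1315 mature miRNAs listed. Small RNA was sequenced from vesicles of MDA-MB-231, a human breast cancer line of the triple-negative type, and of MCF-10A, a human mammary epithelial line that is not cancerous, with 1 library each. Both lines carried no engineered change (genotype WT) and received no treatment, and vesicles were pelleted by ultracentrifugation of medium from near-confluent cells in EV-free medium. The comparison asked which miRNAs differ between cancer cell vesicles and non-cancer vesicles. With 1 library per cell line there was no replicate check, so no p-value is given, and each interval covers only the counting error of these libraries.

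Each cluster is transcribed as a long precursor that holds a miR-23, a miR-27 and a miR-24 hairpin in that order. The hairpins are cut apart and trimmed, and the mature strand is loaded into Argonaute, where nucleotides 2 to 8 (the seed) pair with target mRNAs. miR-23 and miR-27 are known from endothelial cells and angiogenesis, and miR-27 is also known in fat tissue, where it represses PPARG, the master factor of adipocyte differentiation. miR-24 is known for restraining cell cycle genes. Because miR-24-3p is the same molecule from either cluster, its level cannot be assigned to a locus.

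The mature sequences are shown because the assignment of reads to a cluster rests on the 3′ end of the miR-23 and miR-27 molecules. They were taken from RefSeq (GRCh38.p14), where all 5 were matched by name, and are written 5′ to 3′ with the seed in capitals.
miR-23a-3p: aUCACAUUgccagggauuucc
miR-23b-3p: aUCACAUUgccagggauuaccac
miR-27a-3p: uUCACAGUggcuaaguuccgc
miR-27b-3p: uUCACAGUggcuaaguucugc
miR-24-3p: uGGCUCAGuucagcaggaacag

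The 5 miRNAs fall into 3 seed groups. miR-23a-3p and miR-23b-3p share the seed UCACAUU, miR-27a-3p and miR-27b-3p share UCACAGU, and miR-24-3p carries GGCUCAG. Positions are counted from 1 at the 5′ end. miR-23a-3p and miR-23b-3p are the same over their first 18 nucleotides and differ by U19A, after which miR-23b-3p runs 2 nucleotides longer. miR-27a-3p and miR-27b-3p are also the same over 18 nucleotides and differ by C19U alone. A read that ends at or before nucleotide 18 cannot be assigned to a single paralogue, and a longer read can match both if a mismatch was allowed. How such reads were counted is not given in the sources used here. Each value of a single paralogue below carries this limit. miR-24-3p has no such paralogue, but both clusters encode its sequence, and how reads that match both places were counted is not given either.

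The miR-23a cluster is on chromosome 19 from 13836287 to 13836659 (GRCh38, minus strand), a span of 373 bases that holds MIR23A, MIR27A and MIR24-2. In GENCODE v29 these hairpins lie within an exon of the antisense transcript AC020916.1 on the same strand. The miR-23b cluster is on chromosome 9 from 95085208 to 95086088 (plus strand), a span of 881 bases that holds MIR23B, MIR27B and MIR24-1. These hairpins lie in the protein-coding gene C9orf3 on the same strand, MIR23B and MIR27B between its exons and MIR24-1 within an exon from 95085930 to 95086119. The full mature sequences of miR-23b-3p and miR-27b-3p occurred in no annotated transcript other than their own hairpins, and those of the remaining 3 occurred otherwise in the host transcripts only.

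The MCF-10A library held 11529 counts and the MDA-MB-231 library 18397, so 1 count stood for 86.7 CPM (the count scaled to the library total) and for 54.4 CPM. Unless stated, paired values are given with MCF-10A sEVs first. miR-182-5p alone took 46.6% and 51.0% of the counts, which ties every other share to it. Of 7 epithelial marker miRNAs, 2 reached 10 counts in 1 library, the summed counts were 79 and 21, and miR-205-5p was at 0 in the cancer line's vesicles (41 counts in the other library). miR-200b-3p (3 and 9 counts), miR-141-3p (0 and 2) and miR-429 (1 and 2) had instead more counts in the MDA-MB-231 library. That library is deeper, and the interval of the ratio of shares included an equal share for each of them. Of 9 serum and blood miRNAs, 6 reached 10 counts and the sums were 1453 and 3801, most of them from miR-451a (1360 and 3577). For miR-451a, abundant in red blood cells, the ratio of its counts to those of miR-23a-3p, a ratio used as a sign of red cell RNA in plasma, was 136 in the MCF-10A library (1360 over 10 counts) and 1192 in the MDA-MB-231 library (3577 over 3 counts). The second was 8.76 times the first, with a wide interval (2.25 to 49.6), while the share of miR-451a itself was 11.8% and 19.4%, a ratio of 1.65 (1.55 to 1.76). Whether any RNA of the medium has a part in the members' values was not tested.

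All 5 members together made up a smaller share of MDA-MB-231 sEVs than of MCF-10A sEVs. They held 121 counts, or 1.05% of the library, in MCF-10A sEVs (95% Wilson interval 0.879 to 1.25%) against 66 counts, or 0.359%, in MDA-MB-231 sEVs (0.282 to 0.456%). The share was thus 2.93-fold lower in MDA-MB-231 sEVs (exact conditional 95% interval 2.15 to 4.01), and 193.1 counts would have made the shares equal. Across the 109 miRNAs that reached 10 counts in 1 library the median log2 ratio (CPM with a pseudocount of 1) was already −0.72, and under TMM scaling (edgeR's factor, which assumes that most miRNAs do not differ) it was 0.0052. The log2 ratio of the pool was −1.55, below that median, and under TMM scaling its share was 0.565 times that of MCF-10A sEVs (0.412 to 0.769). With that scaling miR-27a-3p (46 and 9 counts) was the only single member whose interval stayed below an equal share.

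miR-27 was the main seed group in both libraries. It made up 76.9% of the members' counts in the MCF-10A library (93 of 121, 68.6 to 83.5%) and 71.2% in the MDA-MB-231 library (47 of 66, 59.4 to 80.7%). miR-23 followed with 14.9% (18 of 121) and 16.7% (11 of 66), and miR-24 with 8.26% (10 of 121) and 12.1% (8 of 66). The intervals of these portions overlapped between the libraries for each seed group, so a different make-up by seed was not detectable at this depth.

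Pooled by seed, the miR-27 group took 0.807% of the MCF-10A library (0.659 to 0.987%) and 0.255% of the MDA-MB-231 library (0.192 to 0.340%). This was a share 3.16-fold lower in MDA-MB-231 sEVs (2.20 to 4.58). Had every read of the rarer paralogue also been counted for the other, the ratio of shares would be 0.507 (0.321 to 0.794) in place of 0.317. The miR-23 group took 0.156% (0.0988 to 0.247%) and 0.0598% (0.0334 to 0.107%), 2.61-fold lower (1.17 to 6.12). Counted in the same way as for miR-27, its ratio would be 0.501, with an interval that included an equal share (0.172 to 1.41). With TMM scaling the miR-27 group was at 0.524 times its MCF-10A share (0.361 to 0.751), whereas the interval of the miR-23 group included an equal share (0.633, 0.270 to 1.42). miR-24-3p took 0.0867% (0.0471 to 0.160%) and 0.0435% (0.0220 to 0.0858%), and the interval of its ratio included an equal share under the library total too (1.99-fold lower, 0.709 to 5.82).

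**Figure D1:**
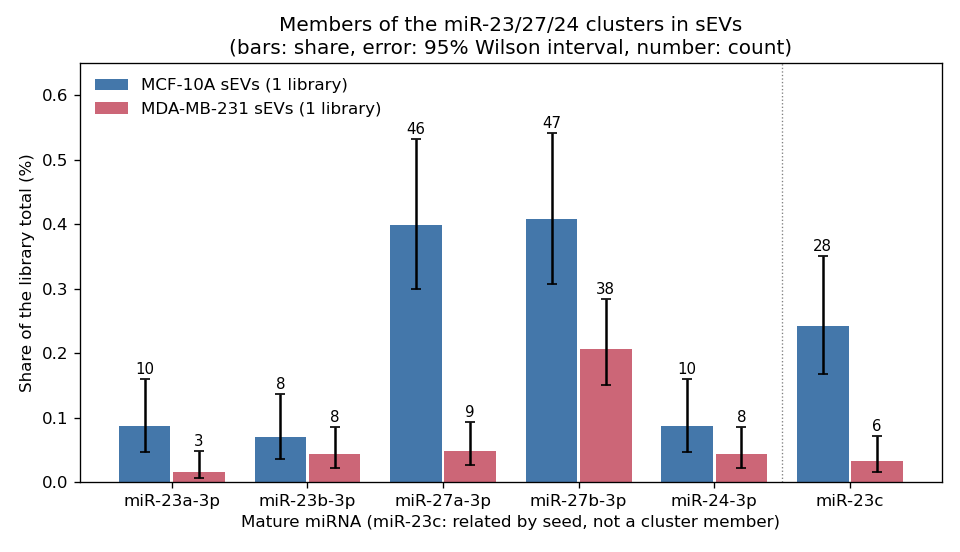
Share of the library total in percent (y axis) for the 5 members and the seed relative miR-23c (x axis), with 1 library for each cell line, bars at the share, error bars at the 95% Wilson interval and the count printed above each bar. miR-27a-3p and miR-27b-3p stand at nearly equal height in MCF-10A sEVs (46 and 47 counts), whereas in MDA-MB-231 sEVs miR-27b-3p (38 counts) stands above the other 4 members (3 to 9 counts).

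The members differed in level within each library. In MCF-10A sEVs miR-27b-3p was highest with 47 counts (0.408%, 0.307 to 0.542%) and miR-27a-3p had 46 counts (0.399%, 0.299 to 0.532%), and these neighbours did not differ beyond counting error. They ranked 21 and 22 among all miRNAs of that library. miR-23a-3p and miR-24-3p with 10 counts each and miR-23b-3p with 8 counts (0.0694%, 0.0352 to 0.137%) followed, with intervals that overlapped among themselves and lay below those of both miR-27 members.

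In MDA-MB-231 sEVs miR-27b-3p was again highest with 38 counts (0.207%, 0.151 to 0.283%), at rank 31. Its interval lay above those of the other 4 members. miR-27a-3p had 9 counts (0.0489%, 0.0257 to 0.0930%), miR-23b-3p and miR-24-3p had 8 counts each (0.0435%) and miR-23a-3p had 3 counts (0.0163%, 0.00555 to 0.0479%), and these 4 could not be ordered. miR-27a-3p, next to its paralogue at rank 22 in MCF-10A sEVs, was at rank 85.

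The members of the miR-23a cluster showed the lower ratios. miR-27a-3p had 46 and 9 counts, where an equal share would have given 73.4, and its share was 8.16-fold lower in MDA-MB-231 sEVs (3.94 to 18.95). miR-23a-3p had 10 and 3 counts against 15.96 at an equal share, a ratio of shares of 0.188 (0.0332 to 0.730). Summed, these miR-23a cluster members had 56 and 12 counts, or 0.486% (0.374 to 0.630%) and 0.0652% (0.0373 to 0.114%), a share 7.45-fold lower (3.95 to 15.3). With TMM scaling the summed ratio was 0.222 (0.108 to 0.419) and that of miR-27a-3p was 0.203 (0.0872 to 0.419), both still below an equal share, whereas that of miR-23a-3p alone included it (0.311, 0.0550 to 1.21).

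The members of the miR-23b cluster lay closer to an equal share. miR-27b-3p had 47 and 38 counts against 75.0 at an equal share, 1.97-fold lower (1.26 to 3.11). miR-23b-3p had 8 counts in each library, where 12.8 would be equal, a share 1.596-fold lower with an interval that included an equal share (0.522 to 4.88). Its ratio of shares was 0.627 and turned to 1.04 with TMM scaling (0.339 to 3.17), so no direction can be given for it. Summed, they had 55 and 46 counts, or 0.477% (0.367 to 0.620%) and 0.250% (0.188 to 0.333%), 1.91-fold lower (1.27 to 2.89). This rested on the scaling. With TMM the summed ratio was 0.866 (0.573 to 1.31) and that of miR-27b-3p was 0.838 (0.531 to 1.31), and both intervals included an equal share.

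Of the 5 members, 4 reached 10 counts in 1 library and miR-23b-3p (8 counts in each) did not. miR-23a-3p (10 and 3 counts), miR-27a-3p (46 and 9) and miR-24-3p (10 and 8) reached it in the MCF-10A library only. The minimum thus leans the tallies of these members towards lower values in MDA-MB-231 sEVs. At least 2-fold lower in MDA-MB-231 sEVs were 2 of these 4 (miR-23a-3p and miR-27a-3p), when compared to 45 of all 109 such miRNAs (41.3%). None was at least 2-fold higher, when compared to 17 of the 109 (15.6%). miR-24-3p (1.99-fold lower) and miR-27b-3p (1.97-fold lower) lay just outside the 2-fold threshold. The interval of the ratio lay below an equal share for 3 of the 4 members and for 46.8% of the 109. With TMM scaling 2 of the 4 stayed at least 2-fold lower, against 25.7% of the 109, and for 1 of the 4, miR-27a-3p, the interval stayed below an equal share, against 26.6%. So few members cannot be set apart from these backgrounds.

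**Figure D2:**
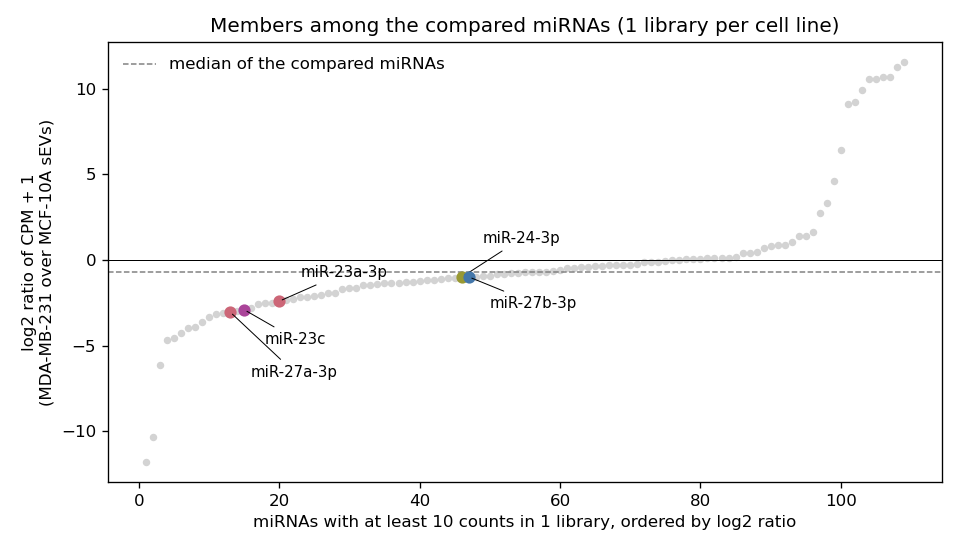
Log2 ratio of CPM with a pseudocount of 1 (y axis, MDA-MB-231 over MCF-10A sEVs) for the 109 miRNAs that reached 10 counts in 1 library, ordered from lowest to highest (x axis), with the 4 members that reached 10 counts and the seed relative miR-23c in colour and the dashed line at the median of −0.72. miR-27a-3p stands at place 13 and miR-23a-3p at place 20 from the lowest, whereas miR-24-3p and miR-27b-3p stand at places 46 and 47, close to the median.

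Whether members of a cluster move together was read from ratios within each library, which do not depend on the scaling. In MCF-10A sEVs the miR-23a cluster supplied 50.5% of the counts of the 4 members that have a single locus (56 of 111, 41.3 to 59.6%), and in MDA-MB-231 sEVs 20.7% (12 of 58, 12.3 to 32.8%). The ratio of shares of the miR-23a cluster was 0.258 times that of the miR-23b cluster (exact conditional 95% interval 0.112 to 0.560), an interval that lies below 1. As counted, the clusters thus differed between these libraries beyond counting error. How reads that match both paralogues were assigned is not known, and this difference carries that limit. miR-27 supplied 93 of the 111 counts and 47 of the 58. miR-27a-3p was 49.5% of the miR-27 counts in the MCF-10A library (46 of 93, 39.5 to 59.4%) and 19.1% in the MDA-MB-231 library (9 of 47, 10.4 to 32.5%), with a ratio of ratios of 0.244 (0.0931 to 0.587). For miR-23 the values went the same way but were not separable, with miR-23a-3p at 55.6% (10 of 18) and 27.3% (3 of 11), and a ratio of ratios of 0.313 (0.0399 to 1.89).

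Within a cluster no difference between the miR-23 and miR-27 neighbours was detectable at this depth. The ratio of shares of miR-23a-3p was 1.52 times that of miR-27a-3p (0.225 to 7.73), and that of miR-23b-3p was 1.23 times that of miR-27b-3p (0.366 to 4.17). These intervals are wide, so that the neighbours may still differ several-fold. miR-24-3p, which both clusters encode, had a ratio 0.957 times that of the miR-23b cluster (0.301 to 2.95) and 3.66 times that of the miR-23a cluster (1.03 to 13.0). The latter interval narrowly excluded equal ratios, but the counts of miR-24-3p cannot be assigned to a cluster. Including the comparison with miR-23c below, 8 such ratios were computed, and their intervals are not adjusted for that number.

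**Figure D3:**
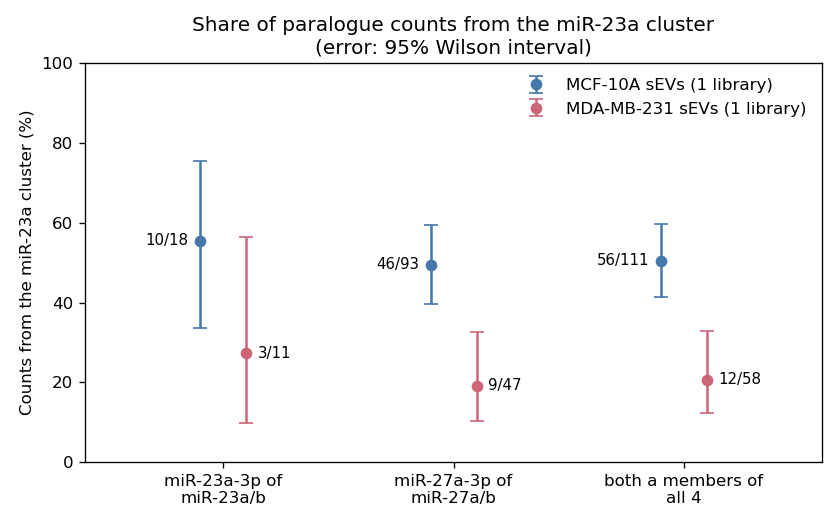
Counts from the miR-23a cluster as a percentage (y axis) of miR-23a-3p plus miR-23b-3p, of miR-27a-3p plus miR-27b-3p, and of all 4 (x axis), with points for 1 library of each cell line, bars at the 95% Wilson interval and the counts beside each point. For miR-27 the point lies at 49.5% for MCF-10A sEVs against 19.1% for MDA-MB-231 sEVs, with intervals that do not overlap, whereas for miR-23 the intervals overlap.

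Other mature miRNAs with a member's seed were sought among the 1175 listed miRNAs that have a mature sequence in RefSeq, and 2 were found. miR-9985, with the miR-27 seed, was at 0 in both libraries. The other was miR-23c, whose hairpin lies on the minus strand of chromosome X from 20017088 to 20017187, away from both clusters. Its sequence is shown because it carries the miR-23 seed and had more counts in MCF-10A sEVs than both miR-23 members summed.
miR-23c: aUCACAUUgccagugauuaccc

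miR-23c shares its first 13 nucleotides with both miR-23 members and differs from miR-23b-3p by U14G and C22A and from miR-23a-3p by U14G and A19U. It had 28 and 6 counts, against 44.7 at an equal share, a ratio of shares of 0.134 (0.0455 to 0.331). With miR-23c added, the miR-23 seed group had 46 and 17 counts, 4.32-fold lower (2.43 to 8.03). The ratio of miR-23c was 0.357 times that of the miR-23a-3p and miR-23b-3p sum (0.0909 to 1.27), which did not separate them. A read of miR-23a-3p or miR-23b-3p that ends before nucleotide 19 differs from miR-23c at nucleotide 14 alone. It can match miR-23c if a mismatch was allowed, and how such reads were counted is not given. The values of miR-23c, and of the group with it, carry this limit. miR-128-3p, whose seed is that of miR-27 shifted by a nucleotide, had 20 and 25 counts, 1.28-fold lower, and its interval included an equal share (ratio 0.418 to 1.49).

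The opposite strands of the hairpins were nearly absent. Of 6 star arms sought (the 5p strands, which are usually degraded), 5 were listed, and together they had 2 counts in each library against 121 and 66 for the 3p members. miR-27a-5p had 1 count in each, miR-24-1-5p had 1 and 0, miR-27b-5p had 0 and 1, and miR-23a-5p and miR-24-2-5p had 0 in both. By the limit of 3 counts of the total, a count of 0 allows a share of up to 0.0260% (MCF-10A sEVs) or 0.0163% (MDA-MB-231 sEVs). No ratio can be read from such counts, and so the arms gave no second view of the clusters. miR-3074-5p (1 and 0 counts) and miR-3074-3p (0 and 1), from the strand opposite MIR24-1, were as rare. miR-181c-5p and miR-181d-5p, whose genes lie on the other strand with the nearer 38039 bases from the miR-23a cluster, were at 0 in both libraries.

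miR-27 belongs to the miRNAs known to act in adipocyte differentiation or browning, the tissue process of interest to the study, and 13 other such miRNAs were set beside it. Of these, 4 reached 10 counts in 1 library. At least 2-fold lower in MDA-MB-231 sEVs were 3 of the 4 (41.3% of the 109) and 1 was at least 2-fold higher (15.6% of the 109), with a median log2 ratio of −1.49 when compared to −0.72 over the 109. With TMM scaling 1 of the 4, miR-30b-5p, stayed at least 2-fold lower (25.7% of the 109). Under the library total the lower miRNAs were miR-30b-5p (19 and 2 counts, ratio of shares 0.00745 to 0.273) and miR-30c-5p (27 and 14 counts, 3.08-fold lower), which are known to favour browning, and miR-378a-3p (21 and 13 counts, 2.58-fold lower), encoded within PPARGC1B. The higher miRNA was miR-143-3p, known to promote adipocyte differentiation, with 90 and 447 counts (ratio of shares 2.48 to 3.95). The other 9, miR-155-5p and miR-133a-3p among them, had 9 or fewer counts in both libraries, and 3 of them were at 0 in both.

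The miRNAs whose log2 ratio lay nearest that of the 5 members pooled (−1.55, from 2 libraries only) were miR-26a-5p (98 and 56 counts, log2 ratio −1.48), miR-30c-5p (−1.62), let-7a-5p (−1.63), miR-1246 (111 and 65 counts, −1.45) and miR-6864-5p (14 and 7 counts, −1.67). With a single ratio per miRNA, this likeness is a description of these libraries. It holds for the pool and not for its members, whose log2 ratios ran from −3.03 (miR-27a-3p) to −0.67 (miR-23b-3p).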

How the data were processed

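Small RNA was sequenced after treatment to remove end and base modifications, with 1 library for the sEVs of each cell line, grouped by the cell line in the labels. The authors deposited raw counts per mature miRNA and CPM values, which matched those counts divided by their total. Per the submitters' processing notes FastQC, cutadapt, Bowtie and edgeR were used with hg38. Versions, settings, the miRBase release and the treatment of reads matching several miRNAs are not given in the sources used here. The paper refers to small RNA data published earlier and does not say whether these are the same libraries.

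Counts were used for all results. Shares carry 95% Wilson intervals. A ratio of shares was given an exact binomial interval conditional on the summed count, and the ratio of 2 such ratios is a conditional odds ratio with its exact interval. The intervals hold for counting error alone and treat each count as a separate molecule. PCR copies were not marked by molecular identifiers, so that the intervals may be too narrow. Fold calls used CPM with a pseudocount of 1, a minimum of 10 counts in 1 library and a threshold of 2-fold. This minimum selects on the split of counts between the libraries, which can lower the coverage of ratio intervals among miRNAs that pass it. The scaling (TMM in edgeR 4.0.16, median of ratios in DESeq2 1.42.0, and a total that leaves out the 10 most abundant miRNAs in either library), the arms, pseudocount, minimum and threshold were varied. Other steps used Python 3.11.15 (scipy 1.17.1, numpy 2.4.6, pandas 2.3.3) and R 4.3.3. The fold calls and the intervals of ratios of shares were tested on simulated data, and the conditional odds ratios were not. Sequences and positions came from RefSeq (GRCh38.p14) and GENCODE v29 (GRCh38), which gave the same coordinates for the 6 hairpins.

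The miRNAs named were the 5 members, their star arms, other listed miRNAs with a member's seed, miR-128-3p, miR-3074, miR-181c and miR-181d, miR-451a, a list of adipocyte miRNAs, 2 lists of marker miRNAs (epithelial, and serum and blood) and the 5 miRNAs nearest the pooled log2 ratio. Members and lists were chosen with earlier results of these data known.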

Additional observations from a re-analysis of the deposited data

How the results depend on the processing

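No paired analysis was possible because each cell line had 1 library, and for the same reason no replicate could be left out. Median of ratios scaling gave a size factor of 1 to each library, so it compared raw counts without a correction for depth. TMM multiplied every ratio of shares by 1.65, the total that leaves out the most abundant miRNAs by 1.66 and median of ratios scaling by 1.596. In that order, the ratio of all 5 members moved from 0.342 to 0.565, 0.568 and 0.545, that of the miR-27 group from 0.317 to 0.524, 0.526 and 0.505, and that of the miR-23b cluster from 0.524 to 0.866, 0.871 and 0.836. Those of the miR-23 group, miR-24-3p and the miR-23a cluster stayed within their counting intervals. The ratio between the clusters, 0.258, is the same under any scaling and was 0.274 with both arms counted. With both arms the other ratios stayed within their intervals. With only the larger count of each paralogue pair (chosen after seeing the data), as if every read of the smaller had been counted for both, the ratio was 0.507 for miR-27, 0.505 for all 5 members and 0.501 for miR-23 (0.172 to 1.41). With miR-23c added (also chosen after seeing the data) the miR-23 ratio was 0.232, and reads shared with miR-23c limit this value too.

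Of the 109 miRNAs, 45 were at least 2-fold lower and 17 higher. Each other scaling gave 28 and 24 (from 27.4% to 46.2% higher among the calls), no minimum 288 and 242, a minimum of 50 counts 12 and 5, and a 4-fold threshold 26 and 13. The other settings kept both counts within 1.5 times. For the 5 single members 17 of 20 recomputed ratios stayed within their intervals, and the 3 that moved were those of miR-27b-3p under the other scalings. The other scalings apply nearly the same factor, and low counts have wide intervals, so this tally says little about stability. The ratio of miR-23b-3p, 0.627, crossed an equal share within its interval, to 1.04 with TMM and with the total that leaves out the most abundant miRNAs, and to 1 with median of ratios scaling. No other member turned. Depth limits these values, since 3 of the 5 members had 10 or fewer counts in both libraries, and so do the single library per cell line and the unknown counting of reads that paralogues share.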
